A study of Homo sapiens with 12 samples.

Results

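The pluripotency locus on the short arm of chromosome 12 holds GDF3, DPPA3, NANOGNB, NANOG and SLC2A3 as close neighbours. These 5 members, out of 19821 protein-coding genes analysed, were chosen by name and position, as RefSeq gene bodies on GRCh38. The stretch from the first base of GDF3 to the last base of SLC2A3 is 246 kb long (chromosome 12, 7689784 to 7936187, GRCh38). With 300 kb added on both sides it reaches from 7389784 to 8236187, or 846 kb, and holds 16 protein-coding genes.

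Nucleolus-associated domains (NADs), the DNA that co-purifies with nucleoli, were mapped in untreated cultures of H9, an established line of human embryonic stem cells. RSeT was the medium of the naive and mTeSR that of the primed cultures. The 12 libraries form 4 groups of 3: naive nucleolar DNA, naive whole-cell DNA, primed nucleolar DNA and primed whole-cell DNA. The labels tie all 6 libraries of a state to 1 list of regions, so a value has no error across cultures, no test compares the states, and read depth is unknown. How far cells in RSeT medium resemble naive cells of an embryo was not tested. Every limit of a region at this locus lies on a 10 kb grid, so 10 kb is the resolution of each statement on a gene.

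NANOG encodes a homeodomain transcription factor of the core network that keeps cells pluripotent, together with OCT4 and SOX2. Its neighbours DPPA3 and GDF3 are transcribed in pluripotent cells too, and DPPA3 is used as a marker of the naive state. Sequence at the nucleolus is as a rule rich in silent chromatin, but NAD maps measure position and say nothing of transcription.

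The 4 members with a start in the RefSeq promoter table (GRCh38.p14) are shown first, because these bases mark where each gene begins relative to the regions. Each line gives the 250 bases before the start of transcription, 5′ to 3′ on the gene's own strand. Capitals mark a match to the composite OCT4-SOX2 motif (TTTGCAT, then any base, then ACAATG) or to its octamer part (TTTGCAT), each searched on both strands. SLC2A3 was not matched in that table.
GDF3 (minus strand, chr12:7695776-7696025): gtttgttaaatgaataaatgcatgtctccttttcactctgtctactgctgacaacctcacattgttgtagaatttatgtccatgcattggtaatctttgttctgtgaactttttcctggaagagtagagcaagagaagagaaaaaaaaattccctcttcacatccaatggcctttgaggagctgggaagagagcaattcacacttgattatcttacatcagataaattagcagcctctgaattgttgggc
DPPA3 (plus strand, chr12:7711183-7711432): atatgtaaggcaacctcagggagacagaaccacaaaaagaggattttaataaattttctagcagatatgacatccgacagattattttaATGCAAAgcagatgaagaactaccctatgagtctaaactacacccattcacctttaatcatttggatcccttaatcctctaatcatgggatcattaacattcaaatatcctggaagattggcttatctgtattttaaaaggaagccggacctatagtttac
NANOGNB (plus strand, chr12:7764966-7765215): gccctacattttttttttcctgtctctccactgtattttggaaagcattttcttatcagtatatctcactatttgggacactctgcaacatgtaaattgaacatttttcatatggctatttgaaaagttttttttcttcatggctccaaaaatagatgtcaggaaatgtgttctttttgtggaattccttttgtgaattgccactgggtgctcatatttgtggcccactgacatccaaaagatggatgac
NANOG (plus strand, chr12:7789152-7789401): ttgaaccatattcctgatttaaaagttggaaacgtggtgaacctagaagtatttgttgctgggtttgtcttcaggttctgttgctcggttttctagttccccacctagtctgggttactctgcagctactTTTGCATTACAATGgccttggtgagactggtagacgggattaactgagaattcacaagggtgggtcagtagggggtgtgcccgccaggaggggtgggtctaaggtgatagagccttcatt

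The composite motif lies 120 to 107 bases before the start of NANOG. Of 34961 windows of this kind, 2 (0.00572%) hold this exact spelling, those of NANOG and NRARP. No mismatch was allowed, so sites of other spelling were not counted and the frequency of the motif in general was not measured. DPPA3 holds the octamer part alone, on the minus strand, 161 to 155 bases before its start, and 3.93% of all windows hold it (the composite contains it). A TATA box of the letters TATAAA, searched on both strands, was found in 10.7% of all windows and in none of these 4. GC content was 38.4% for GDF3, 35.6% for DPPA3, 36% for NANOGNB and 47.6% for NANOG, against a median of 58.4% over all windows (quartiles 46.4% and 68%). The first 3 thus lay under the lower quartile and NANOG just above it. The windows hold 0, 2, 0 and 4 CpG dinucleotides in the same order, against a median of 11 (quartiles 3 and 23). In naive NADs lay all 250 bases of the NANOGNB window and none of the other 3, whereas in primed NADs lay all 250 bases of each of the 4 windows. Over all windows of 300 bases around a start, 41.5% touched a naive and 61.9% a primed NAD.

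The first question was which members lay in NADs in each state. Any overlap of a gene body with a region counted as lying in a NAD. Of the 5 members, 3 lay in naive NADs and 5 in primed NADs; by the same rule 76.8% of all protein-coding genes lay in naive and 81.8% in primed NADs. Overlap by itself was thus common in the genome, and the extent of it was measured next. Of the members, 1 lay whole inside a naive NAD, as did 12.6% of coding genes, and all 5 lay whole inside primed NADs, as did 41.8%. With at least 50% of the body asked for, 2 members were in naive and 5 in primed NADs, against 34.7% and 61.2% of coding genes. Among coding genes of chromosome 12, 76.1% touched naive and 84.0% primed NADs, and 10.7% lay whole in naive and 32.5% in primed NADs. The median member had 3.62% of its body in naive NADs and 100% in primed NADs, against medians of 35.6% and 75.8% over all coding genes. These 5 are not independent, since 3 of them share 1 primed region. They are also short, 5992 to 16958 bases, whereas the median coding gene is 24482 bases long. A shorter body more easily lies wholly inside or wholly outside a region. The shares above thus set the members beside genes that are mostly longer, and coding genes of like length were not compared.

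**Figure D1:**
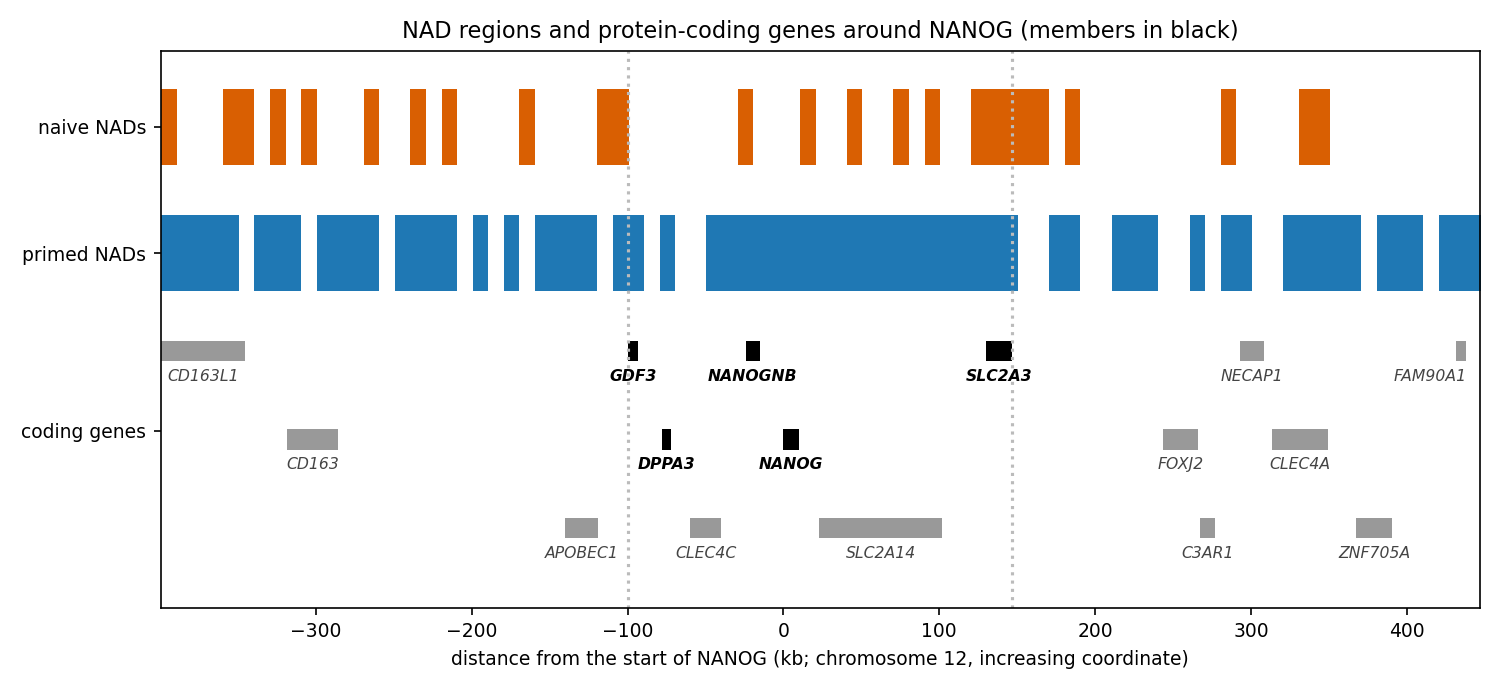
Map of naive (top, orange) and primed (below, blue) NAD regions and of protein-coding genes across the 846 kb, by distance in kb from the start of NANOG; members are black, other genes grey, and dotted lines bound the stretch from GDF3 to SLC2A3. Naive regions are mostly single 10 kb bins, while 1 primed region of 200 kb spans NANOGNB, NANOG and SLC2A3.

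NANOG (chromosome 12, 7789402 to 7799146, 9745 bases) had 0% of its body in naive NADs and 100% in primed NADs. In naive cells it filled part of a 30 kb stretch without a region (7770001 to 7800000), and the next naive region, 7800001 to 7810000, began 854 bases beyond the end of the gene. The naive call of NANOG therefore rests on a limit that is nearer than the 10 kb resolution. Naive-free stretches of 30 kb or more make up 38.0% of all those between naive regions. In primed cells NANOG lay well inside a region of 200 kb (7740001 to 7940000), with 49401 bases to the lower limit and 140854 bases to the upper.

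DPPA3, also called STELLA, guards DNA methylation in the mouse zygote. Its body (7711433 to 7717559, 6127 bases) had 0% in naive NADs and 100% in primed NADs. In naive cells the nearest region ended 21432 bases below the gene. The naive-free stretch around DPPA3, 7690001 to 7760000, was 70 kb long, and 8.22% of such stretches are as long or longer. The primed region over it was a single bin (7710001 to 7720000), which exceeded the gene by 1432 bases below and 2441 bases above. NANOG and DPPA3 thus shared 1 pattern, none of the body in naive and all of it in primed NADs. Of coding genes of all lengths, 11.0% showed it. The shared pattern depended on the processing: DPPA3 had 0% in primed NADs when only regions of at least 20 kb were counted, and NANOG had 100% in naive NADs when gaps up to 50 kb were merged.

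GDF3, a ligand of the TGF-beta family related to NODAL, lay at the edge of a naive region. Of its 5992 bases (7689784 to 7695775), 217, or 3.62%, fell in the naive region 7670001 to 7690000, and 100% lay in the primed region 7680001 to 7700000. Its naive call ended when at least 1 kb of overlap was asked for, which left 2 of 5 members in naive NADs, against 73.3% of coding genes by that rule. The limit was added with the data in view.

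NANOGNB, a homeobox gene named as the neighbour of NANOG (7765216 to 7774121, 8906 bases), had 53.7% of its body in naive NADs, from 1 single-bin region (7760001 to 7770000) that also covered its start. It had 100% in primed NADs, inside the 200 kb region.

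SLC2A3, which encodes the glucose transporter GLUT3 (7919230 to 7936187, 16958 bases), was the only member with its whole body in NADs of both states, as 9.85% of coding genes had. Its naive region was 50 kb long (7910001 to 7960000), a length reached by 5.77% of the 61750 naive regions. The 200 kb primed region ended 3813 bases above SLC2A3, so the naive region ran on past the primed limit by 2 bins.

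The second question was how the regions of each state divided the locus. Between the outer ends of GDF3 and SLC2A3, naive NADs covered 31.0% and primed NADs 87.8% of the sequence. All naive sequence there lay inside primed NADs: both lists covered 76.4 kb, naive NADs alone 0 kb, primed NADs alone 140 kb, and neither 30 kb. Of 7 naive regions that touched this stretch, 5 were single bins, and 5 lay wholly inside primed regions. The primed list had only 3 regions there, of 20, 10 and 200 kb.

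By count of regions, the 200 kb primed region was long for chromosome 12, where 26 of 1762 primed regions, or 1.48%, reach that length. Over all chromosomes 790 of 29994, or 2.63%, do. These are shares of regions, not of sequence: 47.4% of chromosome 12 primed regions are single bins, and the longest is 2770 kb. Primed regions of at least 50 kb cover 27.9% of chromosome 12, and all primed regions 46.3%. Naive NADs covered 40% of the 200 kb region, in 6 pieces. In the 593 primed regions of 150 to 250 kb, the naive share had a median of 47.6% (quartiles 37.5% and 58.8%), and 33.6% of them had a share of 40% or less. The value at the locus thus lay between the quartiles.

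The region also holds near-identical copies of members: SLC2A14, a duplicate of SLC2A3, and NANOGP1, a duplicate of NANOG. NANOGP1 (7892362 to 7899246) had the same calls as NANOG, 0% in naive and 100% in primed NADs. SLC2A14 (7812514 to 7891196) had 38.1% in naive NADs and 100% in primed NADs, against 100% in both for SLC2A3. Reads that fit both copies cannot be placed on one of them, and how they were handled is not given in the sources used here, so the values of these 4 genes are uncertain and the part of shared reads was not tested. CLEC4C, a lectin of plasmacytoid dendritic cells between DPPA3 and NANOGNB, had 0% in naive and 47.3% in primed NADs, and the 200 kb region begins inside it. The pseudogenes RPS20P29 and LOC100130582 lie within SLC2A14. RPS20P29 was whole in both lists, and LOC100130582 was at 0% in naive and 100% in primed NADs.

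**Figure D2:**
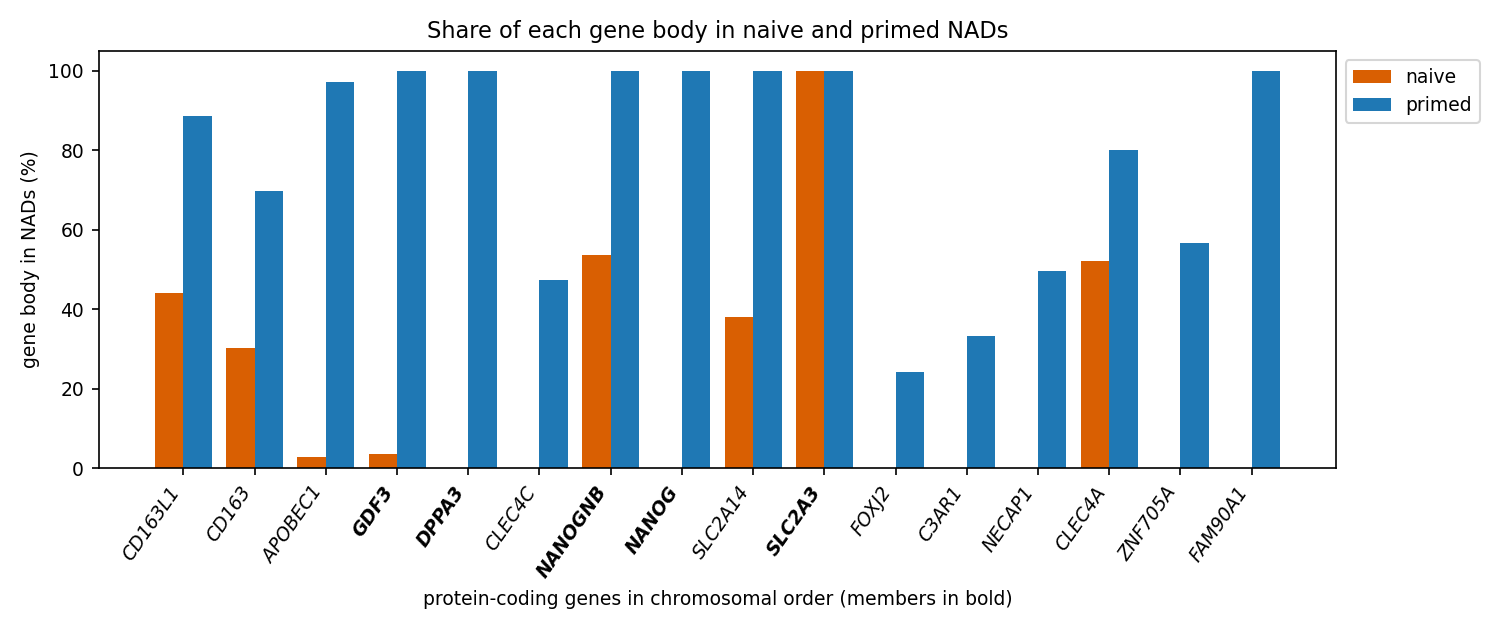
Share of the gene body (percent) in naive NADs (orange, left bar) and primed NADs (blue, right bar) for the 16 protein-coding genes in chromosomal order, members in bold. The primed bar is the higher one for every gene except SLC2A3, where both are at 100%.

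The third question was how far the pattern of the members reached. Among all 16 protein-coding genes of the stretch with its flanks, 8 lay in naive NADs and 16 in primed NADs. By the same rule 76.8% of all coding genes lay in naive and 81.8% in primed NADs. Of the 16, 0 lay in naive NADs only and 8 in primed NADs only. Of all coding genes, 11.6% lay in naive NADs only and 16.6% in primed NADs only. The median body share of the 16 was 1.41% in naive and 92.9% in primed NADs, against 35.6% and 75.8% over all coding genes. The 16 include the members. Of the 9 flank genes alone, 4 lay in naive and 9 in primed NADs, 5 of them in primed NADs only. Their median body shares were 0% in naive and 69.7% in primed NADs, so their primed median was below that of all coding genes. In the flanks 1 of 9 genes lay whole in primed NADs, and 0 of 9 lay whole in naive NADs. By that rule 41.8% of all coding genes lay whole in primed and 12.6% in naive NADs.

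Toward lower coordinates lie genes of macrophages and of RNA editing. The scavenger receptor genes CD163L1 and CD163 had 44.2% and 30.3% in naive NADs and 88.7% and 69.7% in primed NADs. APOBEC1, the editing enzyme of apolipoprotein B RNA, had 2.83% in naive and 97.2% in primed NADs. Its naive overlap was 599 bases of the region that also reached GDF3.

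Toward higher coordinates, primed coverage was patchier. The forkhead gene FOXJ2 had 0% in naive and 24.2% in primed NADs, the complement receptor gene C3AR1 0% and 33.2%, and NECAP1, an adaptor in clathrin-mediated endocytosis, 0% and 49.5%. The lectin gene CLEC4A was the only coding gene of this flank in naive NADs, at 52.1% naive and 80.1% primed. ZNF705A had 0% in naive and 56.6% in primed NADs and FAM90A1 0% and 100%. Both belong to families of many similar copies, so their calls carry the same doubt about read placement. The right flank held the longest naive-free stretches of the locus, 90 kb (7980001 to 8070000) and 100 kb (8140001 to 8240000, past the end of the flank), lengths reached by 4.18% and 3.05% of such stretches. The 100 kb stretch holds ZNF705A and FAM90A1, so the doubt about read placement applies to it as well.

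By sequence, naive NADs covered 29.5% and primed NADs 75.2% of the 846 kb, a naive minus primed difference of -45.6 percentage points. Chromosome 12 as a whole stood at 39.8% naive and 46.3% primed, a difference of -6.48 points. The left flank had 36.6% naive and 76.6% primed, and the right flank 21.3% naive and 63.3% primed. As a description, the locus was set beside 13243 windows of its length, moved along chromosome 12 in steps of 10 kb and therefore overlapping. Its naive share was at or above that of 16.9% of windows (median 39.0%) and its primed share at or above that of 72.1% (median 48.0%). The difference was as negative or more so in 9.08% of windows, the lowest being -62.2 points.

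**Figure D3:**
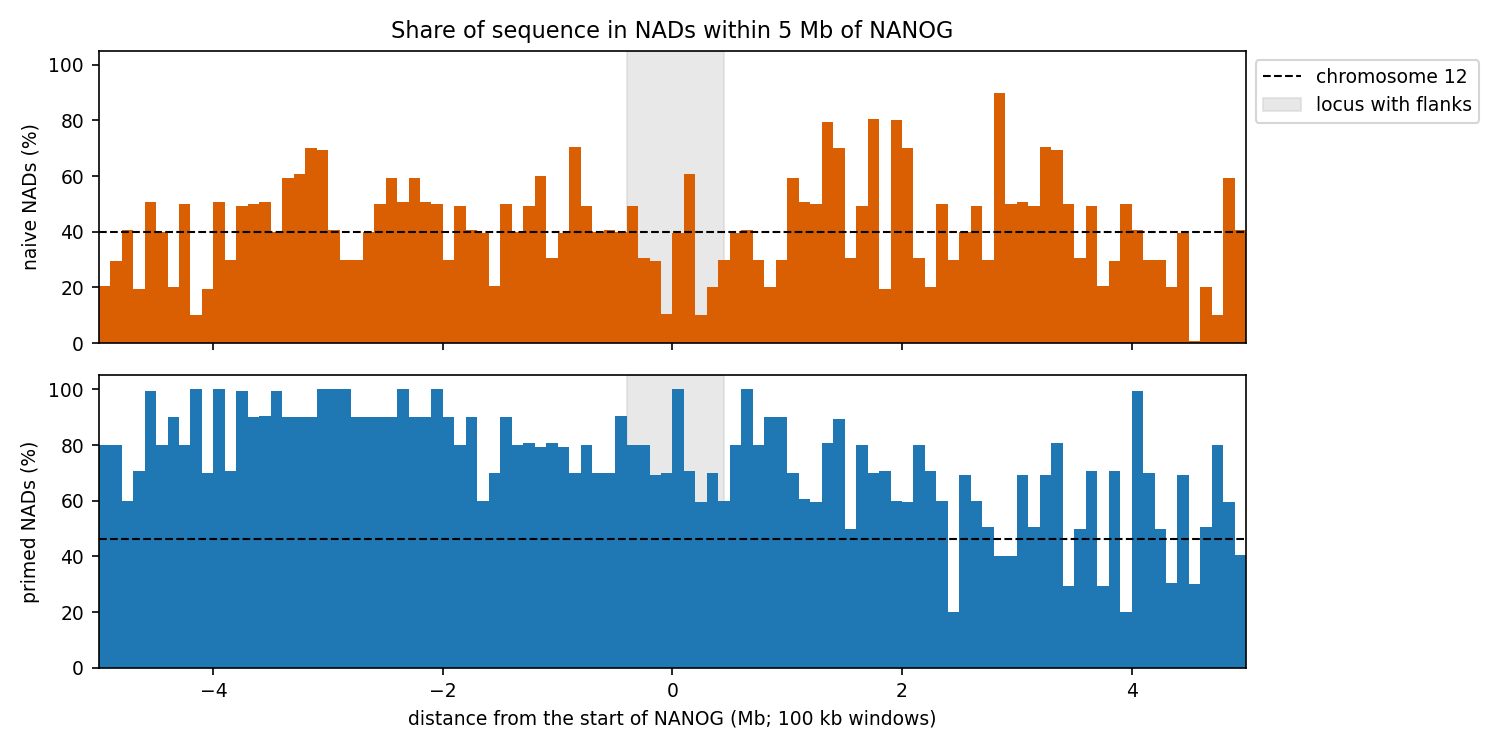
Share of sequence (percent) in naive NADs (top) and primed NADs (bottom) in 100 windows of 100 kb within 5 Mb of the start of NANOG (x axis, Mb); dashed lines give chromosome 12 and grey marks the 846 kb. Within 0.5 Mb of NANOG the naive bars run between 10% and 60.6% and the primed bars between 59.4% and 100%.

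The high primed share was not confined to the locus. Within 5 Mb of NANOG, windows of 100 kb averaged 42.1% in naive and 73.9% in primed NADs, and the primed share was the higher in 88 of 100 windows. Within 0.5 Mb the averages were 32% and 75%, and the primed share was the higher in 10 of 10 windows. The primed share of the 846 kb, 75.2%, was close to that wider average, and its naive share of 29.5% was lower than it. Neither comparison has a test, since 1 list gives no spread.

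The regions differed more in length than in number. The 846 kb held 18 naive regions, 14 of them (77.8%) single bins, and 17 primed regions, 4 of them (23.5%) single bins. Over all chromosomes 57.7% of naive and 51.3% of primed regions are single bins. Per Mb, the 846 kb held 21.3 naive and 20.1 primed regions, against 21.2 and 10.3 over all chromosomes. The near-equal numbers here thus went with more primed regions per Mb than over all chromosomes. The longest naive region was 50 kb and the longest primed region 200 kb. Of the 18 naive regions, 2 lay outside primed NADs altogether, both in the left flank: 7480001 to 7490000 inside CD163 and 7620001 to 7630000 in a stretch without a coding gene.

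Genes related to the members by function were compared by the same overlap rule, which calls 76.8% of all coding genes in naive and 81.8% in primed NADs, 11.6% in naive NADs only and 16.6% in primed NADs only. Beside these shares the counts of the lists are a description, and nothing is read from them about a list. Of 16 other pluripotency factors, 10 lay in naive and 11 in primed NADs. Those in naive NADs only were DPPA2 (71.3% naive and 0% primed) and PRDM14 (51.0% and 0%). Those in primed NADs only, like NANOG, were DPPA4 (0% naive and 71.4% primed), the RNA-binding regulator LIN28A and the zinc finger factor ZFP42 (both 0% and 100%). Unlike NANOG, the genes of OCT4 (POU5F1) and SOX2 were both at 100% naive and 100% primed, as were 9.85% of coding genes. The 2 naive-only and 3 primed-only genes of 16 are near the shares of all coding genes. The median body share was 16.6% naive and 72.1% primed.

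The NODAL and TGF-beta pathway, in which GDF3 acts, had 14 of 15 genes in naive and 11 in primed NADs, with median body shares of 36.2% and 84.4%; over all coding genes the medians are 35.6% and 75.8%, and 76.8% lie in naive and 81.8% in primed NADs. Of the 15, 4 lay in naive NADs only and 1 in primed NADs only, against 11.6% and 16.6% of coding genes. In naive NADs only were the receptor genes ACVR1C (32.6% naive and 0% primed) and ACVR2A (17.9% and 0%) and the NODAL inhibitors LEFTY1 (100% and 0%) and LEFTY2 (26.4% and 0%). CRIPTO, the co-receptor of NODAL and GDF3, was at 0% naive and 100% primed, and was the only pathway gene in primed NADs alone. Of 13 other glucose transporter genes of the SLC2A family, SLC2A14 of this locus among them, 8 lay in naive and 11 in primed NADs. SLC2A4, SLC2A6 and SLC2A7 lay in primed NADs only, each at 0% naive and 100% primed. Of these 13, 0 lay whole in naive and 7 in primed NADs, against 12.6% and 41.8% of coding genes. The 11 of 13 in primed NADs are near the 81.8% of all coding genes.

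**Figure D4:**
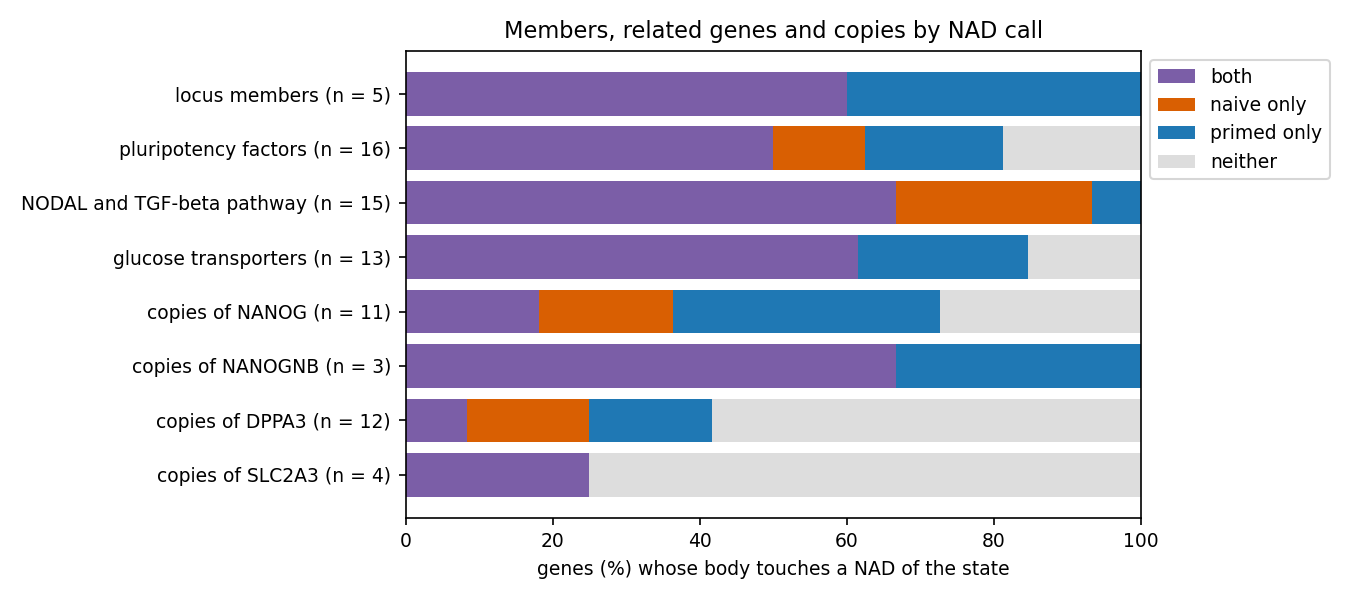
Percentage of genes in NADs of both states (purple), naive only (orange), primed only (blue) or neither (grey) for the 5 members, 3 lists of related genes and the annotated copies of the members. The members, the NODAL and TGF-beta genes and the NANOGNB copies have no gene in the grey class, and 7 of 12 DPPA3 copies are in neither. In neither lay 6.57% of all protein-coding genes and 17.4% of all annotated genes, so an empty grey class in such short lists is not read as a result.

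NANOG, DPPA3 and SLC2A3 have copies, mostly pseudogenes made from reverse-transcribed RNA. Most copies lie elsewhere and share sequence with the members but not their surroundings. NANOGP1 and SLC2A14, which are counted below, lie between the members and inside the same primed region as NANOG and SLC2A3. Of 11 NANOG copies, 4 lay in naive and 6 in primed NADs, with NANOGP3 and NANOGP6 in naive NADs only and NANOGP1, NANOGP10, NANOGP7 and NANOGP8 in primed NADs only. Of 12 DPPA3 copies, 3 lay in naive and 3 in primed NADs. DPPA3P2 and DPPA3P9 were in naive NADs only and DPPA3P11 and DPPA3P6 in primed NADs only. Of 4 SLC2A3 copies, SLC2A14 alone lay in NADs, in both states. Of 3 NANOGNB copies, 2 lay in naive and 3 in primed NADs, with NANOGNBP3 in primed NADs only. By the same rule, 61.9% of all annotated genes lay in naive and 67.9% in primed NADs, 14.7% in naive NADs only and 20.7% in primed NADs only. Most copies are shorter than a 10 kb bin, whereas these shares cover genes of all lengths. Genes of like length were not compared. The copies of a member did not all carry its call.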

How the data were processed

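For either state the deposited file is 1 list of NAD regions, tied per the labels to 6 libraries of H9 cells (nucleolar and whole-cell DNA, 3 replicates each; 350 bp fragments, 150 bp read pairs). A list holds chromosome, start and end on hg38, with no score. The submitters' processing notes name SICER, BWA and SAMtools 1.10; their roles and settings and the treatment of replicates are unstated in the labels. The lists hold 61750 naive and 29994 primed regions on 23 chromosomes.

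Overlaps were computed in bases with numpy 2.4.6 and pandas 2.3.3 under Python 3.11.15, tested on simulated regions, and drawn with matplotlib 3.10.9. Genes came from RefSeq on GRCh38.p14 (58419 used). Stretches of at least 500 kb without a region or gene, 117.4 Mb, were left out of whole-genome shares. Members and lists were chosen with earlier results of these data known. Named genes were the members, all genes between them, coding genes of the flanks, and genes of related lists in NADs of 1 state. POU5F1 and SOX2 were named outside that rule. Alternatives changed region length, gaps, overlap, gene limits and flanks.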

Additional observations from a re-analysis of the deposited data

How the results depend on the processing

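No paired analysis was possible because each state has 1 list and no value per replicate, so leaving out a replicate was not possible either. A share was counted as changed beyond 5 percentage points, a count beyond 1.5 times. With regions of at least 20 kb, NANOGNB had 0% in naive NADs, DPPA3 0% in primed NADs, and the 846 kb 13.0% in naive NADs (chromosome 12, 27.0%). With regions of at least 50 kb, NANOGNB had 0% in naive NADs, GDF3 and DPPA3 0% in primed NADs. By that limit 1 member remained in naive and 3 in primed NADs. The share of all coding genes by that limit is not given here, so nothing is read from these member counts. By sequence, the 846 kb then had 5.91% naive and 35.4% primed, against 6.30% and 27.9% of chromosome 12. The naive share of the locus was then close to that of the chromosome. With gaps up to 10 kb merged, the 846 kb had 35.5% naive and 88.2% primed (chromosome 12, 48.8% and 53.2%). With gaps up to 50 kb merged, NANOG and NANOGNB had 100% in naive NADs, and the 846 kb had 69.7% naive and 100% primed, while chromosome 12 had 80.5% naive and 66.8% primed. With bodies widened by 10 kb on both sides, naive shares were 39.3% for GDF3, 34.6% for NANOGNB and 30.7% for NANOG, and primed shares 76.9% for GDF3, 38.3% for DPPA3 and 83.3% for SLC2A3. Asking for the whole body left 1 member in naive NADs. Of the 16 coding genes it left 1 in naive and 7 in primed NADs, against 12.6% and 41.8% of all coding genes. Asking for 50% of the body left 3 of the 16 in naive NADs, against 34.7% of all coding genes. Among all 35 annotated genes, 13 lay in naive and 32 in primed NADs, against 61.9% and 67.9% of all annotated genes. By the start window, added after the data had been seen, 1 member of the 4 with a window lay in naive NADs. Without flanks the primed share was 87.8%. With the 200 kb region deleted from the primed list, but its sequence still counted in the 846 kb, the primed share was 51.5%. That setting was also added later, and its value is not the primed share of the remaining sequence. DPPA3 stayed at 0% in naive NADs under the length and gap settings, and NANOG, NANOGNB and SLC2A3 at 100% in primed NADs under them. The lists give no signal over background, so how near a bin lay to the calling threshold is unknown.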
